A study of Mus musculus with 3 samples.

Results

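The CRTC coactivators and the CREB family factors are the nuclear arm of cyclic AMP signalling, and 9 of their genes were followed here in brown adipose tissue taken whole, the fat that makes heat. They are Crtc1, Crtc2 and Crtc3, the CREB family genes Creb1, Crem, Atf1 and Creb3l1, and the acetyltransferase genes Crebbp and Ep300. The members were all non-control probes whose RefSeq accession belongs to 1 of these genes, 16 probes in all, out of 55678 non-control probes and 21153 genes with a symbol on the array. The 3 two-colour arrays each compared 1 male Ad-Lkb1 sample, strain C57BL/6J, labelled with Cy5, against 1 sample of male wild-type (WT) littermates, strain C57BL/6, labelled with Cy3, all aged 10 weeks and fed regular chow. LKB1, the kinase encoded by Stk11, is deleted in the Ad-Lkb1 mice. The labels used here name neither the promoter or recombinase behind the deletion nor the number of animals per sample, so p-values measure only the spread between these samples, which may be technical. Because the dyes were never swapped, dye, strain name and genotype cannot be told apart.

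When cyclic AMP rises in a brown adipocyte, as it does under sympathetic stimulation, protein kinase A phosphorylates CREB, which then binds the acetyltransferases CBP (Crebbp) and p300 (Ep300) at cyclic AMP response elements in its target genes. CRTC proteins are a second set of CREB coactivators. The SIK kinases, which LKB1 activates, phosphorylate CRTC proteins and so hold them in the cytoplasm, and the phosphatase calcineurin releases them, so that CRTC activity is set largely by location rather than by messenger level. The arrays measured messenger only, and in a whole tissue a change in the number of cells of a type cannot be told apart from a change in RNA per cell.

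Between 46.7% and 51.3% of the spots were well above background in a channel, and 0 spots were saturated. Stk11 had log2 levels of 8.36, 8.46 and 8.37 in the Ad-Lkb1 samples on arrays 1 to 3, against 9.62, 9.63 and 9.54 in WT, and fell (log2 ratio -1.20 ± 0.056 SD, n = 3, limma adjusted p = 0.0106); whether its probe lies within the deletion was not analysed here. All 14 measured genes of the brown adipocyte marker list, Ucp1 among them, were well above background in both channels. A level here is the log2 intensity of a channel after normalization, which can be compared between samples for 1 probe and not between probes. A ratio is the level in Ad-Lkb1 minus the level in WT on the same array, tested against 0 with limma over all 19344 genes and unnamed features, and a gene was called at an adjusted p under 0.05. Of all features 8.68% were called, 4.78% as higher and 3.91% as lower in Ad-Lkb1 tissue. Of the 14 brown adipocyte markers, 5 were called higher and 0 lower, or 2 higher and 5 lower with each array centred on its median. Such centring called 387 of all 19344 features higher and 9710 lower.

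Of the 9 genes, 1 was called, the activator and repressor gene Crem, and it rose. That is 11.1% of the genes, near the 8.68% of all features. The other 8 genes had mean log2 ratios from -0.29 (Crtc2) to 0.0028 (Atf1) and adjusted p from 0.0827 to 0.987. The median ratio of the 9 genes was -0.053, against -0.0097 over all features. Levels of the Ad-Lkb1 and WT samples overlapped for 7 of the 9 genes, all except Crem and Crtc2. The same count was not made over all features, so this one has no baseline here.

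**Figure D1:**
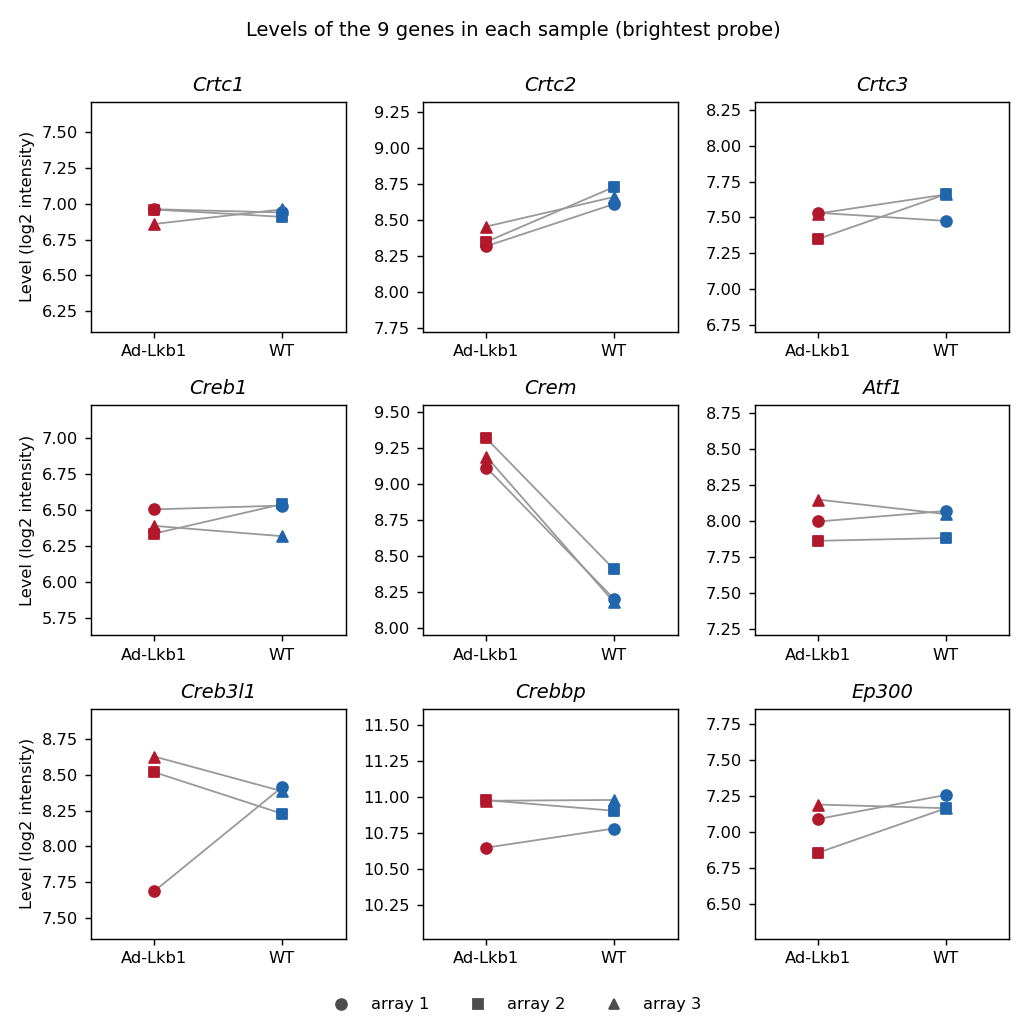
Log2 intensity (vertical axis) of the brightest probe of each of the 9 genes in the Ad-Lkb1 (red) and WT (blue) samples, with lines joining the 2 samples of an array and symbols marking arrays 1 to 3. Every panel spans the same height in log2 units, and the Ad-Lkb1 levels stand clear above WT for Crem (9.11 to 9.32 against 8.18 to 8.41) and clear below WT for Crtc2 (8.32 to 8.45 against 8.61 to 8.73).

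Crtc1, the CRTC gene best known from brain, was not called. Its single probe had log2 levels of 6.96, 6.96 and 6.86 in Ad-Lkb1 on arrays 1 to 3 and of 6.94, 6.91 and 6.96 in WT. The mean log2 ratio was -0.0094 ± 0.081 (SD, n = 3), with a 95% interval of -0.20 to 0.18 from the moderated fit and an adjusted p of 0.953 (limma). This interval, like those below, covers only the spread between the arrays.

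Crtc2 encodes the CRTC protein best known from liver, where it drives gluconeogenic genes during fasting. Its brighter probe had log2 levels of 8.32, 8.35 and 8.45 in Ad-Lkb1 and of 8.61, 8.73 and 8.66 in WT. Each Ad-Lkb1 sample was below every WT sample, and the log2 ratios were -0.29, -0.38 and -0.21. The mean of -0.29 ± 0.088 (SD, n = 3), a level 1.23-fold higher in WT, did not pass the threshold (limma, unadjusted p = 0.0125, adjusted p = 0.0827), and its 95% interval was -0.49 to -0.10. The other probe of Crtc2 was dim, with log2 levels of 6.40 to 6.42 in Ad-Lkb1 and 6.43 to 6.50 in WT, and a ratio of -0.052 ± 0.040 (SD, n = 3). Ratios of dim probes are understated, since an offset of 50 is added to each intensity before the log is taken.

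Crtc3 is the CRTC family member known from adipose tissue, where mice without it were reported to have more brown fat activity. Its brighter probe had log2 levels of 7.53, 7.35 and 7.53 in Ad-Lkb1 and of 7.48, 7.66 and 7.66 in WT. The genotypes overlapped, with Ad-Lkb1 higher on array 1 and lower on arrays 2 and 3. The mean ratio was -0.13 ± 0.18 (SD, n = 3, 95% interval -0.38 to 0.13, limma adjusted p = 0.444). The second, dimmer probe had a similar mean of -0.12 ± 0.097 (SD, n = 3), below 0 on all 3 arrays, and was not called either (limma adjusted p = 0.345 over all kept probes).

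Crem encodes both activators and repressors that bind the same element as CREB, including the short repressor ICER, which cyclic AMP induces from an internal promoter. Its brightest probe, A_52_P460957, had log2 levels of 9.11, 9.32 and 9.19 in Ad-Lkb1 on arrays 1 to 3, against 8.20, 8.41 and 8.18 in WT. The genotypes did not overlap, and the ratios on the 3 arrays were close together at 0.91, 0.91 and 1.01. The mean was 0.94 ± 0.058 (SD, n = 3), a 1.92-fold rise with a 95% interval of 0.76 to 1.13 on the log2 scale (limma adjusted p = 0.0123). Centring each array on its median in place of loess gave 0.31 and ended the call (adjusted p = 0.0776), with the median of all features then at -0.42. The call was also lost without array 1 (0.96, adjusted p = 0.134) and without array 2 (0.96, adjusted p = 0.0919), when limma called 0 of all features (3934 and 3564 had an unadjusted p under 0.05).

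The probes of Crem did not give 1 value. A second probe, A_51_P423976, carried the same accession and had log2 levels of 7.99, 8.20 and 8.18 in Ad-Lkb1, against 7.61, 7.72 and 7.48 in WT. It rose too, by 0.52 ± 0.16 on the log2 scale (SD, n = 3, limma adjusted p = 0.0411 over all kept probes, of which 8.72% were called). The third probe, A_55_P2044257, annotated to another transcript of Crem, was not well above background in either genotype on any array, so it has no fold. The places of the probes in the transcripts were not analysed here, so activator and ICER transcripts could not be separated.

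**Figure D2:**
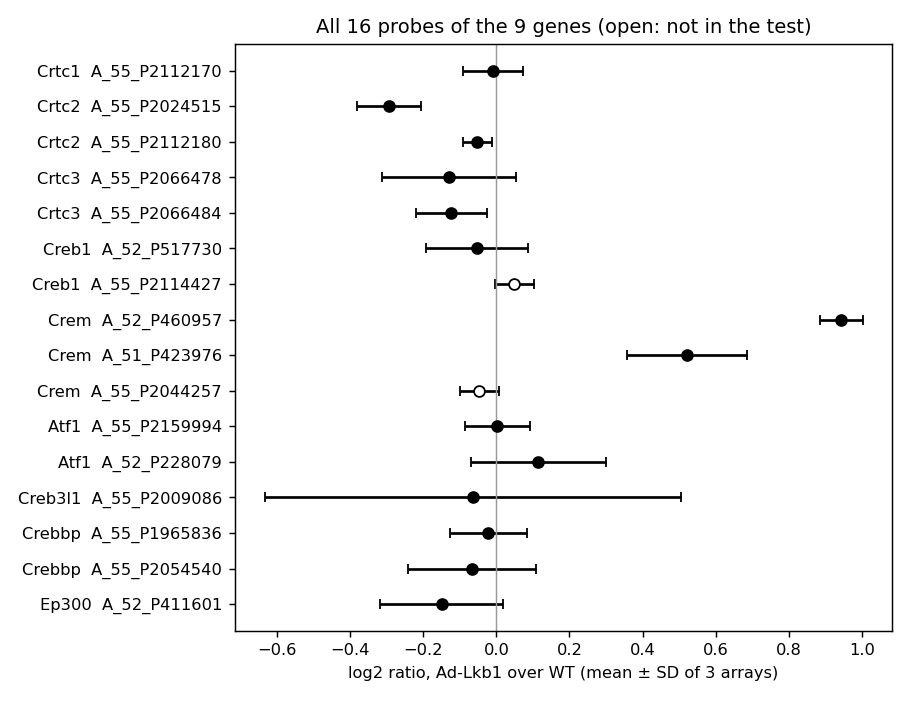
Mean log2 ratio of Ad-Lkb1 over WT (horizontal axis, bars ± SD over 3 arrays) for all 16 probes of the 9 genes, with the brightest probe of a gene uppermost and open symbols for the 2 probes that were too dim for the test. The 2 tested probes of Crem lie at 0.94 and 0.52, and the other tested probes lie between -0.29 and 0.12.

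Markers of some other cell types also differed between the genotypes, where 4.78% of all features were called higher and 3.91% lower. Of 10 endothelial markers 1 rose and 1 fell, with a median log2 ratio of -0.28. Of 7 measured lymphocyte markers 0 were called, with a median of -0.028. Of 16 measured macrophage markers, 9 rose and 0 fell, with a median log2 ratio of 2.03, 2.31 and 0.81 on arrays 1 to 3, where Crem had 0.91, 0.91 and 1.01. The summed linear level of these markers ranged from 14670 to 17850 in Ad-Lkb1 and from 3699 to 8765 in WT, and 0 of the 16 were dim throughout in either genotype (Cd163, a further marker on the list, was too dim for the test). Of 15 fibroblast markers, 9 rose and 0 fell, with medians of 0.72, 0.92 and 0.60 on the arrays and sums of 74440 to 83330 in Ad-Lkb1 and 41000 to 43410 in WT. With median centring 8 macrophage markers were called higher and 2 lower, and 2 fibroblast markers higher and 2 lower. Endothelial markers then had 0 called higher and 8 lower, and lymphocyte markers 0 higher and 2 lower. That setting called 387 of all 19344 features higher and 9710 lower. The part of these cell types in the rise of Crem was not tested. Among the 13136 other genes with a symbol, those whose 3 ratios lay nearest to Crem's, by Euclidean distance, were the non-coding host gene Snhg15 (distance 0.068), the succinate dehydrogenase subunit gene Sdhb (0.104) and the scavenger receptor gene Stab1 (0.111).

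Creb1, the founding member of the family, was measured by 1 tested probe with log2 levels of 6.50, 6.34 and 6.39 in Ad-Lkb1 and of 6.53, 6.54 and 6.32 in WT. These low levels overlapped, and the mean log2 ratio was -0.053 ± 0.14 (SD, n = 3, 95% interval -0.28 to 0.17, limma adjusted p = 0.731). A second probe of Creb1 was well above background on 2 arrays in Ad-Lkb1 and on 1 in WT and was not tested, with ratios of 0.023, 0.11 and 0.015. Atf1, the third close relative, had log2 levels of 8.00, 7.86 and 8.15 in Ad-Lkb1 and of 8.07, 7.88 and 8.05 in WT with its brighter probe. Its mean ratio was 0.0028 ± 0.089 (SD, n = 3, 95% interval -0.19 to 0.20, limma adjusted p = 0.987), and its other probe had 0.12 ± 0.18 (SD, n = 3). Neither Creb1 nor Atf1 was called, and no test compared them with Crem.

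Creb3l1 encodes a membrane-bound relative, also called OASIS, that is cut free under endoplasmic reticulum stress and drives collagen genes in bone of mice. It differed most between arrays of the 9 genes, with an SD larger than that of 96.0% of all features. Its log2 levels were 7.69, 8.52 and 8.63 in Ad-Lkb1 and 8.41, 8.23 and 8.38 in WT, so that the Ad-Lkb1 sample of array 1 was the lowest of the 6 samples and those of arrays 2 and 3 the highest. The ratios of -0.72, 0.29 and 0.24 had a mean of -0.064 ± 0.57 (SD, n = 3, 95% interval -0.67 to 0.54, limma adjusted p = 0.887). Without array 1 the mean was 0.26 and not called (adjusted p = 0.23).

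The median log2 ratio of 9 measured skeletal muscle markers turned between the same arrays as Creb3l1. It was -3.17, 2.36 and 3.90 on arrays 1 to 3. Not every marker turned, since Mylpf had 0.0070, 0.031 and -0.23, and Mb was near 0 on array 1 (-0.079). The summed linear level of the 9 markers was 4460, 26800 and 27040 in Ad-Lkb1, against 22990, 6767 and 3720 in WT. Of the 9, 0 were dim throughout in either genotype, whereas Ckm, Myh1 and Actn3 were too dim for the test. Creb3l1 itself had 8.41, 8.23 and 8.38 in WT on arrays 1 to 3, while the summed muscle level in WT fell from array to array. Fibroblast markers had medians of 0.72, 0.92 and 0.60 on the arrays. The part of muscle or fibroblasts in the values of Creb3l1 was not tested.

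**Figure D3:**
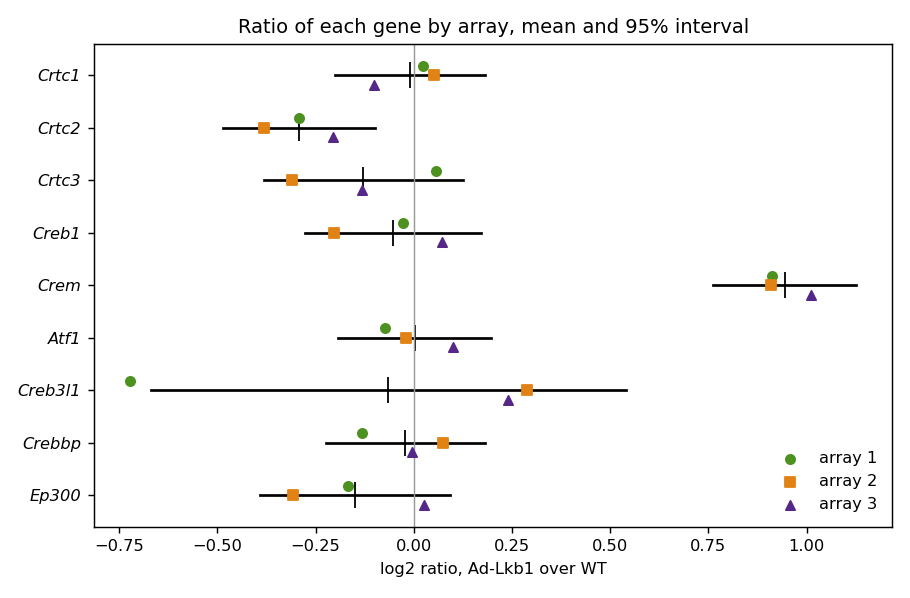
Log2 ratio of Ad-Lkb1 over WT (horizontal axis) of the 9 genes on arrays 1 to 3 (circles, squares and triangles), with the mean as a vertical tick and its 95% interval from the moderated fit as a line. Crem lies at 0.94 with its 3 arrays close together, Crtc2 lies below 0 on every array, and Creb3l1 has -0.72 on array 1 and 0.29 and 0.24 on the others.

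The acetyltransferases CBP and p300, which acetylate histones beside CREB and many other factors, were not called. Crebbp had log2 levels of 10.65, 10.98 and 10.97 in Ad-Lkb1 and of 10.78, 10.90 and 10.98 in WT, and a mean ratio of -0.022 ± 0.10 (SD, n = 3, 95% interval -0.22 to 0.18, limma adjusted p = 0.887). Its second, dim probe had -0.067 ± 0.18 (SD, n = 3). Ep300 had log2 levels of 7.09, 6.86 and 7.19 in Ad-Lkb1 and of 7.26, 7.17 and 7.17 in WT. Its ratio was below 0 on arrays 1 and 2 and 0.025 on array 3, with a mean of -0.15 ± 0.17 (SD, n = 3, 95% interval -0.39 to 0.092, limma adjusted p = 0.356).

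Ratios near 0 depended on how the dyes were balanced. With each array centred on its median, 6 of the 9 genes were called, all as lower in Ad-Lkb1. Atf1 turned from 0.0028 with loess to -0.55, and Crebbp, below 0 in both settings, moved from -0.022 to -0.73. That setting leaves in place any drift of the dye ratio with brightness. The median of all features moved to -0.42, and 10097 features were called, 387 of them higher, against 1680 with loess, 924 of them higher. Crem, at 0.31, was the only one of the 9 genes with a ratio above 0 in that setting.

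**Figure D4:**
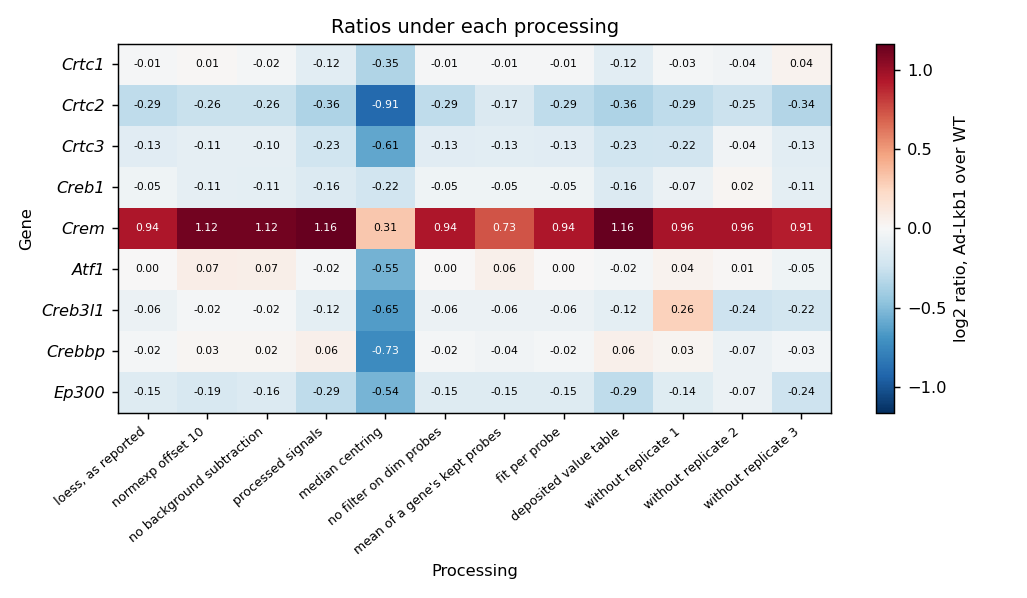
Log2 ratio of Ad-Lkb1 over WT (colour and number) of the 9 genes (rows) under the processing reported here and 11 alternatives (columns). Crem is above 0 in every column, from 0.31 to 1.16, Crtc2, Crtc3 and Ep300 are below 0 in every column, and the other 5 genes have both signs.

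Genes that CREB is known to induce were examined next, from a list of 28 of which 25 were measured. Of these 7 rose and 0 fell, against 4.78% of all features called higher, and 24 of the 25 had a mean ratio above 0, against 9233 of 19344 features. The list's median log2 ratio was 0.63 (0.090 with median centring), and by array it was 0.91, 1.08 and 0.11. The macrophage markers had medians of 2.03, 2.31 and 0.81 on the same arrays, also lowest on array 3, and the brown adipocyte markers, of which Dio2 is one, had 0.17, 0.22 and 0.61. The part of these cell types in the ratios of the CREB targets was not tested. With median centring 6 of the 25 were called higher and 3 lower, against 387 higher and 9710 lower of all 19344 features. Several means above 0 with loess were then below 0, among them Sik1 (0.0037, then -0.55), Pdk4 (0.033, then -0.66) and Per1 (0.12, then -0.58). The list was made with earlier results of these samples known, so the count is no independent evidence. Without array 1 or array 2 limma called 0 of the 25, as of all genes. Without array 3 it called 14, all higher, when it called 2050 of all 19344 features, 1332 of them higher.

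The genes that rose had ratios above 0 on all 3 arrays. Nfil3, a basic leucine zipper repressor of the clock and immune system, rose by 2.14 ± 0.25 on the log2 scale (SD, n = 3, limma adjusted p = 0.0106), with 1.88, 2.14 and 2.39 on the arrays. Dio2, which makes active thyroid hormone in brown fat, had 1.76, 1.76 and 2.70 and rose 4.21-fold (limma adjusted p = 0.0206). Pde4b and Pde10a, phosphodiesterases that break down cyclic AMP, rose 3.88-fold and 2.71-fold. The small GTPase gene Gem rose 3.74-fold and the stress-induced factor gene Atf3 7.37-fold, and both were less even between arrays, with Atf3 at 3.25, 3.81 and 1.58. Crem was the seventh.

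Some genes of the list that did not pass the threshold were high on arrays 1 and 2 and below 0 on array 3, and 2 of them are given here, picked after their values were seen. The orphan receptor gene Nr4a1 had log2 ratios of 2.03, 3.53 and -0.44 on arrays 1 to 3, and the phosphatase gene Dusp1 had 3.32, 2.57 and -0.19. Neither passed the threshold (limma adjusted p = 0.232 and 0.168). The one gene with a mean below 0 was Id1, an inhibitor of basic helix-loop-helix factors, at -0.58 (limma adjusted p = 0.0619). Ppargc1a, the coactivator of mitochondrial biogenesis, had -0.94, 0.13 and 1.98 and was not called (limma adjusted p = 0.702).

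**Figure D5:**
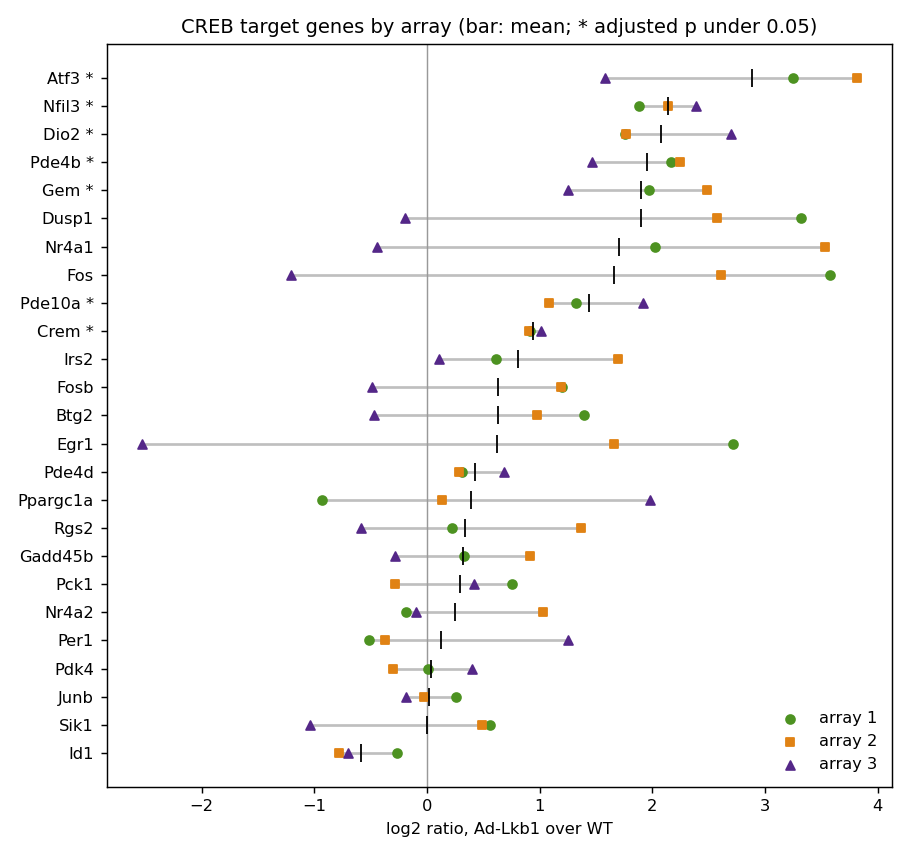
Log2 ratio of Ad-Lkb1 over WT (horizontal axis) of the 25 measured CREB target genes on arrays 1 to 3 (circles, squares and triangles), ordered by their mean (vertical tick), with a star for an adjusted p under 0.05. The 7 starred genes lie above 0 on each array, while Nr4a1, Dusp1 and others are high on arrays 1 and 2 and below 0 on array 3.

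The element that CREB, CREM and ATF1 bind is shown where it stood in the RefSeq promoters (build GRCm38.p6, 250 bases before to 50 after a start) of target genes that rose and, for comparison, of Dusp1, which was not called, and of Atf1 as the only matched member gene with such letters. The windows run 5′ to 3′ on the strand of the gene, and capitals mark the full element TGACGTCA or a lone half-site, TGACG or its reverse complement CGTCA.
Dio2 (chr12:90739115-90739144, minus strand): ctctttctcaaTGACGTCAagatctttagc
Dusp1 (chr17:26508597-26508626, minus strand): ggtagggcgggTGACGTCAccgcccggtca
Pde4b (chr4:102421509-102421538, plus strand): gatttggctgcaCGTCAattttctcatctg
Nfil3 (chr13:52981081-52981110, minus strand): gcggccgccgccCGTCAcggcggggctggc
Atf3 (chr1:191183323-191183352, minus strand): ttaatagcattaCGTCAgcctgggattggt
Atf1 (chr15:100227757-100227786, plus strand): gtgaccacgcggTGACGcagcacgccggcg

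The full element began 95 bases before the start of Dio2 and 143 bases before that of Dusp1, and the half-site 34 bases before a start of Pde4b, 59 before Nfil3, 7 before Atf3 and 90 before Atf1. A full element also counts as a half-site, since it holds both. Of all 32851 promoter windows 1.79% held the full element and 20.8% a half-site. Of the 25 windows of 20 matched target genes 3 held the full element, those of Dio2, Dusp1 and Btg2, and 16 held a half-site. Of the 9 windows of the 5 matched target genes that rose, 1 held the full element and 4 a half-site (44.4%, against 64.0% of the 25). Of the 6 matched member genes, Atf1 alone had a half-site and 0 had the full element. Not all of the 9 genes were matched, and whether the windows took in the internal ICER promoter of Crem was not examined.

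The calls among genes that act on CRTC proteins depended on the scaling. Of 32 measured genes of LKB1 and its partners, the SIK, MARK, NUAK and AMPK kinases, protein kinase A, calcineurin, 14-3-3 proteins and other CRTC regulators, 2 fell and 0 rose, against 3.91% of all features called lower. Apart from Stk11, the gene deleted by design, the only call was Ppp3cc, a catalytic subunit of calcineurin. Ppp3cc had log2 ratios of -1.03, -0.57 and -0.49 (limma adjusted p = 0.0481). The list's median was -0.15. With median centring the list's median was -0.81, and 27 of the 32 were called, all lower. In that setting 9710 of all 19344 features were called lower, and the median of all features was -0.42. The SIK genes, given here after their values were seen because their kinases act directly on CRTC proteins, were not called with loess. Sik1 had 0.56, 0.49 and -1.04 on the arrays, Sik2 had -0.37, -0.59 and -0.042, and Sik3 had 0.20, -0.84 and -0.021 (limma adjusted p = 0.996, 0.165 and 0.572). With median centring Sik2, at -1.05, and Sik3, at -0.90, were called lower (limma adjusted p = 0.0096 and 0.0143), and Sik1, at -0.55, was not (adjusted p = 0.213).

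The list median of 15 further measured genes of the CREB and ATF family was 0.20, or -0.15 when arrays were centred on their medians. Of these genes 2 rose and 0 fell, against 4.78% of all features called higher and 3.91% lower. They were Atf3, given above, and Atf4, the factor of the amino acid response, which had log2 ratios of 0.80, 0.86 and 1.15 and a mean of 0.94 ± 0.19 (SD, n = 3, limma adjusted p = 0.0198), or 0.24 and not called with median centring. Creb3l2 and Creb3l3, the relatives of Creb3l1 measured in this list beside Creb3, had mean ratios of 0.15 and 0.20 and were not called (limma adjusted p = 0.329 and 0.218), and are named after their values were seen. Of 20 other coactivator genes 2 rose and 0 fell, against the same shares of all features, with a list median of 0.061. When arrays were centred on their medians the list median was -0.38, and 0 were called higher and 11 lower. Of all 19344 features 387 were then called higher and 9710 lower. Cited2, whose protein binds CBP and p300 in competition with other factors, had 0.71, 0.77 and 0.51 (limma adjusted p = 0.0263), or a mean of 0.22 and no call with median centring (adjusted p = 0.158). The nuclear receptor coactivator gene Ncoa1 had a mean of 0.43 (limma adjusted p = 0.0477) that turned to -0.27 with median centring.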

How the data were processed

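Per the file headers, the deposited scanner files hold median spot and background intensity of both channels and processed intensity values. The scanner software was Agilent Feature Extraction, whose version the submitters' processing notes give as 11.5, on an array annotated to mm9, and all 3 arrays shared 1 slide and 1 scan. The deposited value table holds the log10 ratio of red over green of the scanner files (largest difference 0.0049, median 0.0 on each array). From these, log2 ratios were obtained with limma 3.58.1 (R 4.3.3): normexp background correction with an offset of 50, loess on each array separately, in which control spots had weight 0, spots of a probe averaged, outlier spots and 3 incomplete spots left out. The files hold median signals, so these were used. A probe was tested if either channel was well above background on every array (25048 of 55678), and a gene was represented by its brightest tested probe. For levels, brightness was also quantile-normalized between arrays, which leaves ratios unchanged. Ratios were tested against 0 (lmFit and eBayes, intercept only) with Benjamini-Hochberg adjustment. The median background was 17.0 in red and 43.0 to 44.0 in green, against median signals of 21.0 to 23.0 and 51.0 to 53.5, and the number of arrays limits the precision. Symbols came from a RefSeq table (GRCm38.p6), matched for 28025 probes. Members and lists were chosen with earlier results of these data known. From each pathway list the called genes are named, and for Crem the 3 nearest genes. The procedure was tested on simulated data.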

Additional observations from a re-analysis of the deposited data

How the results depend on the processing

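Of the ratios, Crem kept its direction under all 11 alternatives (0.31 to 1.16) and its call under 8. It was lost with median centring (0.31) and without array 1 or array 2, with 0.91 to 0.96 when an array was left out. Median centring brought Crtc1 (-0.35), Crtc2 (-0.91), Crtc3 (-0.61), Crebbp (-0.73), Ep300 (-0.54) and Atf1 (-0.55, reversed) past the threshold, so 6 member genes were called in place of 1. Near 0, Crtc1 turned to 0.015 with an offset of 10. Crebbp turned to 0.025 with an offset of 10, 0.024 without background subtraction and 0.056 with the processed signals or the deposited value table. Atf1 turned to -0.023 with either of the last. With 1 array left out Crtc1 ranged from -0.039 to 0.037, Crebbp from -0.069 to 0.034, Atf1 from -0.046 to 0.041, Creb1 from -0.11 to 0.023 and Creb3l1 from -0.24 to 0.26. The cause of these shifts was not tested. The call count over all features was 1680 of 19344. It was 813 with the processed signals, 815 with the deposited value table and 10097 with median centring. Without the filter on dim probes it was 1033 of 36798, and with 1 array left out it was 0 to 2050. Limma called 0 without array 1 or array 2, when 3934 and 3564 had an unadjusted p under 0.05. Member genes called then ranged from 0 to 1, CREB targets from 0 to 14, CRTC regulators from 0 to 4, other CREB and ATF genes from 0 to 5 and other coactivators from 0 to 1. The CREB target count was 4 without the filter. CRTC regulators had 1 call with the processed signals and with the deposited table, 4 without the filter and 27 with median centring. Other CREB and ATF genes had 0, 0, 1 and 6 in these settings, and other coactivators 1, 1, 2 and 11. Without the filter the lists held 28 CREB targets, 33 CRTC regulators, 16 other CREB and ATF genes and 21 other coactivators. Signal over background limits the dim probes of Creb1, Crem, Crtc2, Crtc3 and Crebbp. The test of within-array ratios is itself paired, so no further replicate block could be fitted.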
